A study of Mus musculus with 8 samples.

Results

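The small leucine-rich proteoglycans that bind collagen fibrils were examined as a family of 10 genes, Lum, Dcn, Bgn, Fmod, Ogn, Prelp, Aspn, Omd, Kera and Epyc, in mouse mammary tumours. Members were found on the array through the RefSeq accession of each probe. This gave 9 probes for 9 of the 10 genes, 1 probe per gene, out of 55681 probes for 21368 named genes in all. No probe was matched to Prelp by this rule. Of the 9 probes, 5 had enough signal to enter the test over all probes (Lum, Dcn, Bgn, Fmod and Ogn), and 4 did not (Aspn, Omd, Kera and Epyc).

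The series holds 8 breast tumour RNA samples from mice on the FVB background. In the group labelled FGFR1 KO, 4 samples came from K19-tva mice carrying 2 floxed alleles of the fibroblast growth factor receptor gene Fgfr1, an allele moved from the ICR strain to FVB by backcrossing. In the group labelled WT, 4 samples came from control K19-tva mice. Both groups therefore carry K19-tva, a transgene named for the Krt19 promoter and for tva, the receptor of an avian retrovirus. How the floxed gene was recombined, in which cells, how the tumours were started and the age of the mice are not given in the sources used here. Each tumour RNA was hybridised on 1 2-colour Agilent array together with a universal human reference RNA, and a value is the log2 ratio of red (tumour) to green (reference). Whether each tumour is from its own animal is not stated, so the spread behind every p-value may be partly technical.

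Small leucine-rich proteoglycans are secreted proteins with a horseshoe-shaped core of leucine-rich repeats. Most carry chondroitin, dermatan or keratan sulfate chains, and they sit on the surface of collagen fibrils, where they set fibril diameter and spacing. In a tumour piece they are made mainly by fibroblasts and related stromal cells rather than by the epithelium. In bulk tissue, fewer stromal cells and less RNA per stromal cell cannot be told apart. By sequence, decorin (Dcn), biglycan (Bgn) and asporin (Aspn) form class I, lumican (Lum), fibromodulin (Fmod), PRELP, keratocan (Kera) and osteomodulin (Omd) form class II, and osteoglycin (Ogn) and epiphycan (Epyc) form class III.

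In the RefSeq gene table the family lies mostly in clusters. Dcn, Lum, Kera and Epyc follow one another on chromosome 10 with 0 other protein-coding genes between them. Aspn, Omd and Ogn are likewise adjacent on chromosome 13, next to Ecm2, and Prelp and Fmod are neighbours on chromosome 1. Bgn lies alone on chromosome X. Signal did not follow these clusters, since Dcn and Lum were well above background on all 8 arrays while their neighbours Kera and Epyc were so on 0. On chromosome 13, Ogn was above background on 7 arrays, Omd on 2 and Aspn on 0.

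RefSeq promoter sequences (GRCm38.p6) were matched for 8 of the 10 genes, not for Lum and Dcn. Those of the 3 tested members that matched are shown so that their start regions can be compared, as the 250 bases before the annotated gene start, all on the plus strand. Capitals mark matches on either strand to 4 motifs, the TATA box (TATAAA), the GC box (GGGCGG), the AP-1 site (TGANTCA) and the SMAD box (CAGAC).
Bgn, chrX:73483351-73483600: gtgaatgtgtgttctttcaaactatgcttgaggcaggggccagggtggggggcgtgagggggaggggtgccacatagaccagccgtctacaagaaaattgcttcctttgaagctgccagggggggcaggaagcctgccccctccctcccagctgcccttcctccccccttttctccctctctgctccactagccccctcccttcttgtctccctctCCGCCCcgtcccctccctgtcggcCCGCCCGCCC
Ogn, chr13:49607765-49608014: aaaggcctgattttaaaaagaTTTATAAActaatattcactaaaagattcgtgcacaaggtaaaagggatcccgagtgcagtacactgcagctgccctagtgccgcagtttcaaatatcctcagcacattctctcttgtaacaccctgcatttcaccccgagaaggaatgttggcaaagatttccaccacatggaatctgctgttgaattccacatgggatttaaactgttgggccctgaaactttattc
Fmod, chr1:134037004-134037253: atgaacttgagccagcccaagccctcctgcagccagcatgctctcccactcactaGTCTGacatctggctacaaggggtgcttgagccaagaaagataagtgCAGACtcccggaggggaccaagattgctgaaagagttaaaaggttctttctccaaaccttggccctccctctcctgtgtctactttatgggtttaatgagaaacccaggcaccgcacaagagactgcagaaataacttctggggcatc
The Bgn window held 3 GC boxes, at 34 to 29, 10 to 5 and 6 to 1 bases before the start, the last 2 sharing bases. Its G and C content was 64.4%, against a median of 52.4% over all 32817 promoter windows. The Ogn window held a TATA box match on each strand, overlapping, between 229 and 222 bases before the start, and had a G and C content of 42%. The Fmod window held 2 SMAD box matches, at 195 to 191 and 148 to 144 bases before the start. Of all windows of this length, 12.4% held the TATA box letters, 32.7% the GC box, 6.75% the AP-1 site and 42.2% the SMAD box. No motif was shared by the 3 windows, and an AP-1 match occurred in none of them. These matches are letters in a sequence and were not tested as binding sites.

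Several facts of the series bear on the values below. The share of spots whose red signal cleared background was 68.9% to 83.9% on FGFR1 KO arrays and 43.9% to 69.2% on WT arrays. WT 2 was the array least like the rest, correlating with them at 0.38 on average, where each of the other 7 reached 0.60 to 0.71. All 8 arrays were on 1 slide, with each genotype in its own slide row, so row and genotype cannot be told apart. In rows 97 to 336 and columns 83 to 164 of the array, here called the bright part, negative-control spots were bright on some WT arrays. Array medians there were 6 to 41 red units over local background on WT arrays and 0 to 6 on FGFR1 KO arrays. Over the rest of the array they were 2.25 to 6.75 on WT and 1 to 7 on FGFR1 KO arrays. By this measure not every WT array was bright. The spots of Fmod and Omd and 2 of the 10 spots of Kera lay in the bright part, and those of Lum, Dcn, Bgn, Ogn, Aspn and Epyc did not. None of the 3 Fgfr1 probes passed the test (limma, adjusted p = 0.841, 0.951 and 1.00), and since their position relative to the floxed exons is unknown here, they do not check the genotype labels.

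FGFR1 KO was compared with WT to ask whether these matrix genes differed between the 2 genotypes. Among the 5 tested members, Lum and Dcn had the largest differences, each more than 4-fold lower on average in FGFR1 KO tumours, and of these 5 Lum alone had every FGFR1 KO array below every WT array. Ogn and Bgn were lower on average with overlapping groups, and Fmod was level. With limma over 39795 probes and Benjamini-Hochberg adjustment, 0 of the 5 tested members passed the threshold of 0.05, against 0.0101% of all probes (4 probes, all lower and none of them named). Without adjustment, p was under 0.05 for 3 members (Lum, Dcn and Ogn), all lower, against 4.85% of all probes in that direction and 8.48% in either. A difference of -1 or lower was seen for 3 members (Lum, Dcn and Ogn), against 2.81% of all probes. The FGFR1 KO mean was the lower one for 4 of 5 members, against 47.5% of all probes. The members' median difference was -1.16, against 0.02 over all probes. The members were chosen with earlier results of these data known, so these comparisons with all probes are a description only. The 5 probes were above background on all 4 FGFR1 KO arrays, and on all WT arrays except Ogn on WT 3, so none entered the test through 1 group alone.

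**Figure D1:**
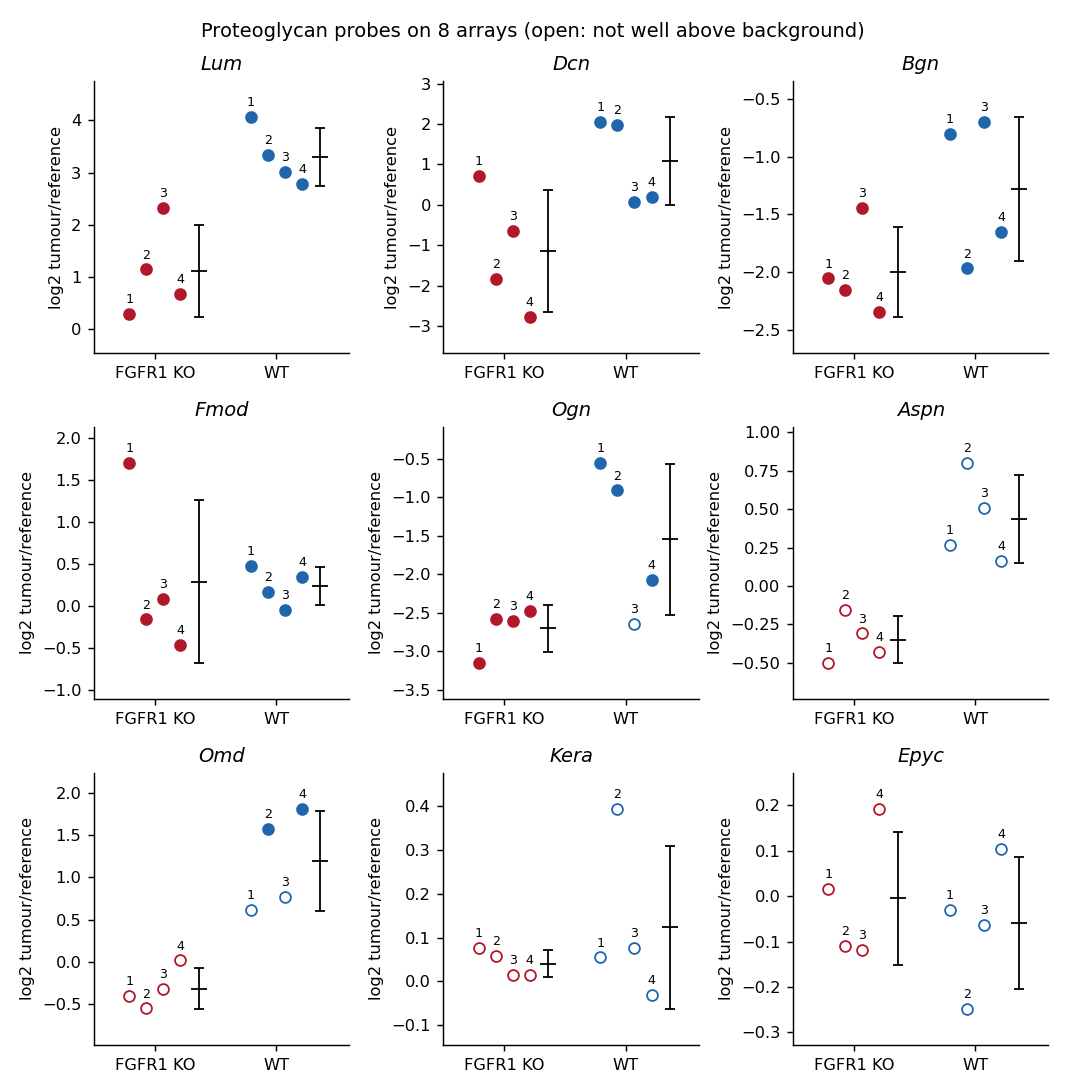
Log2 ratio of tumour to reference for the 9 member probes on each array, with FGFR1 KO in red and WT in blue, array numbers above the points, open circles where red signal was not well above background, and the group mean with its SD at the right of each group. The groups do not overlap for Lum, Aspn and Omd, and Aspn and Omd consist mostly of points that are not well above background. Vertical scales differ between panels.

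Lum encodes lumican, the keratan sulfate proteoglycan that keeps collagen fibrils thin and evenly spaced. Its log2 ratio was 0.29, 1.15, 2.32 and 0.68 on FGFR1 KO 1 to 4 and 4.06, 3.33, 3.02 and 2.79 on WT 1 to 4. The highest FGFR1 KO array, number 3, was below the lowest WT array, number 4. The means were 1.11 ± 0.88 (SD, n = 4) and 3.30 ± 0.56 (SD, n = 4), and the mean difference of -2.19 ± 0.44 (SE) is a level 4.58-fold higher in WT. Its 95% confidence interval ran from -3.20 to -1.19. Lum did not pass over all probes (limma, adjusted p = 0.216). A two-sided exact permutation test with n = 4 in each group gave p = 0.0286, which is the lower limit for this design, and 0.565 after Benjamini-Hochberg adjustment over all probes. Such complete separation in this direction was seen for 2.71% of all probes, and in either direction for 5.1%.

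The difference of Lum lay in the tumour channel. Its red signal was 126.5, 122, 325 and 154.5 intensity units on FGFR1 KO 1 to 4, and 1382.5, 591.5, 741 and 544 on WT 1 to 4. Green signal, from the human reference, stayed between 105 and 142 on all arrays. On the log2 scale after quantile normalisation of the average intensity, red differed by -2.15 and green by 0.05. The red signal exceeded every negative control in the same block of the array on all 8 arrays. The groups also stayed separated with no background correction, the scanner's log ratio, the deposited series matrix values or red processed signal alone. Leaving arrays out cannot undo a separation, and the other settings left the log ratios of Lum unchanged. With 1 array left out the difference ran from -2.60 to -1.92. The difference without WT 1 and WT 2 was -1.80.

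Dcn encodes decorin, a dermatan or chondroitin sulfate proteoglycan that binds fibrils and also transforming growth factor beta. The decorin probe had log2 ratios of 0.71, -1.84, -0.64 and -2.78 on FGFR1 KO 1 to 4 and 2.06, 1.99, 0.07 and 0.20 on WT 1 to 4. FGFR1 KO 1 read above WT 3 and WT 4, so the groups overlapped. The means were -1.14 ± 1.51 (SD, n = 4) and 1.08 ± 1.09 (SD, n = 4), a difference of -2.22 ± 0.78 (SE; limma, adjusted p = 0.495). The difference is as large as that of Lum with a wider spread, and its 95% confidence interval ran from -3.98 to -0.46. Red signal ran from 325 to 5609 units on FGFR1 KO arrays and from 2215 to 10102 on WT arrays. Without FGFR1 KO 1, the array that made the groups overlap, the difference was -2.83 and the groups were necessarily separated. In that setting 3541 of 36681 probes had groups that did not overlap. Without WT 1 and WT 2, the highest arrays, the Dcn difference was -1.27.

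Bgn encodes biglycan, the proteoglycan most like decorin, which also signals through Toll-like receptors when released from the matrix. For biglycan the log2 ratio was -2.05, -2.15, -1.44 and -2.35 on FGFR1 KO 1 to 4 and -0.81, -1.97, -0.70 and -1.65 on WT 1 to 4. WT 1 and WT 3 were high, and WT 2 and WT 4 read below FGFR1 KO 3. The difference was -0.72 ± 0.32 (SE), with a 95% confidence interval from -1.45 to 0.02 (limma, adjusted p = 0.597). Without FGFR1 KO 3, the array that made the groups overlap, it was -0.90 and the groups were necessarily separated. In that setting 3012 of 36898 probes had groups that did not overlap. Unlike Lum, Dcn and Ogn, Bgn was not high on WT 2, and its difference without WT 1 and WT 2 was -0.82.

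Ogn encodes osteoglycin, also called mimecan, a class III member of bone and connective tissue. Osteoglycin had log2 ratios of -3.15, -2.58, -2.61 and -2.47 on FGFR1 KO 1 to 4 and -0.55, -0.91, -2.64 and -2.08 on WT 1 to 4. WT 1 and WT 2 were the highest arrays, and WT 4 was also above every FGFR1 KO array. WT 3, where the scanner did not flag the probe as well above background, read below 3 FGFR1 KO arrays. Red signal over local background was 148 units on WT 3, against 12 in the highest of the 6 negative controls of its block. On FGFR1 KO 2, flagged as well above background, it was 45 against 13. The difference was -1.16 ± 0.44 (SE), with a 95% confidence interval from -2.15 to -0.17 (limma, adjusted p = 0.538). Without WT 1 and WT 2 it was -0.34. Without WT 3, the array that made the groups overlap, it was -1.52 and the groups were necessarily separated. In that setting 3517 of 39661 probes had groups that did not overlap. WT 1 and WT 2 were also the arrays with the highest adipocyte and skeletal muscle markers. The median log2 ratio of 13 adipocyte genes was 3.01 on WT 1, 3.87 on WT 2 and 0.16 to 0.42 on the other 6 arrays. That of 11 muscle genes was 1.76 on WT 1, 8.30 on WT 2 and -0.33 to 0.42 elsewhere. The part of fat and muscle tissue in the Ogn and Dcn values was not tested.

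Fmod encodes fibromodulin, which competes with lumican for a site on collagen and guides cross-linking. Its log2 ratio was 1.70, -0.16, 0.08 and -0.47 on FGFR1 KO 1 to 4 and 0.47, 0.17, -0.05 and 0.34 on WT 1 to 4. FGFR1 KO 1 was the highest of all 8 arrays, and the other 7 lay within -0.47 and 0.47. The difference was 0.05 ± 0.43 (SE), with a 95% confidence interval from -0.91 to 1.02 (limma, adjusted p = 0.977). That interval leaves room for a change in either direction. Without FGFR1 KO 1 the difference was -0.42. On FGFR1 KO 1 the probe gave 3037.5 red units, and FGFR1 KO 2, 3 and 4 gave 282.5 to 723. FGFR1 KO 1 was also the highest FGFR1 KO array for Dcn and the lowest for Lum and Ogn, so members did not rank the FGFR1 KO arrays alike. The spot lay in the bright part, where the 5 negative controls of its block had a median of 158 red units on WT 1 and 60.5 on WT 3, below the 893 and 798 units of Fmod over local background.

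**Figure D2:**
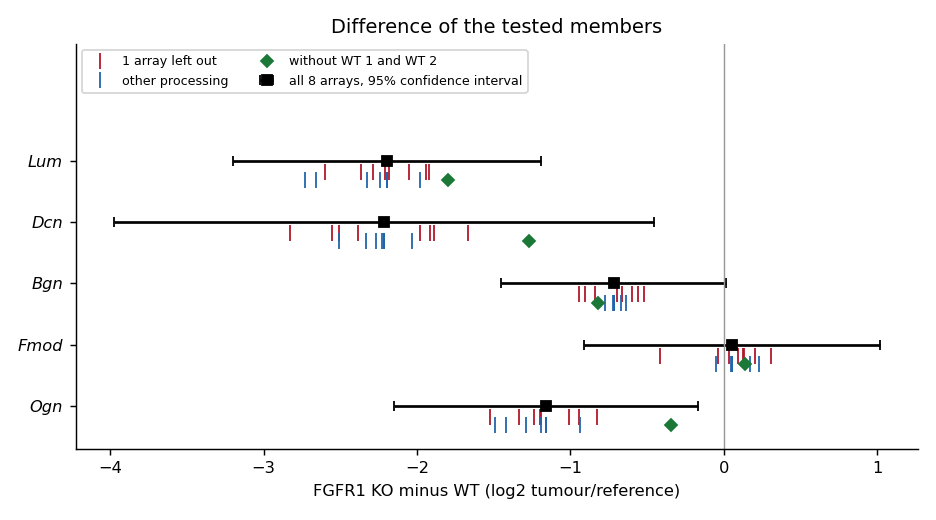
Difference between FGFR1 KO and WT for the 5 tested members on the log2 scale. Black squares and bars give the value over all 8 arrays with its 95% confidence interval, red ticks the values with 1 array left out, blue ticks other processing, and green diamonds the values without WT 1 and WT 2. Lum stays between -2.73 and -1.80, and Ogn moves closest to 0 when WT 1 and WT 2 are left out.

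The remaining 4 members were at or near background and were not tested. Aspn encodes asporin, a class I member without glycosaminoglycan chains that is found in fibroblast-rich tumour stroma. Its probe was not well above background on any array, so no fold is given. Red signal over local background was 10.5, 12, 9.5 and 16 units on FGFR1 KO 1 to 4 and 40, 47, 56 and 21 on WT 1 to 4, and the groups did not overlap. It exceeded all 6 negative controls of its block on 4 WT arrays and on 2 FGFR1 KO arrays. Its log2 ratio was also separated, between -0.50 and -0.15 in FGFR1 KO and between 0.16 and 0.80 in WT. Unlike for Lum, part of this lay in the reference channel. On the log2 scale after quantile normalisation of the average intensity, red differed by -0.42 and green by 0.36. Among probes of this kind, above background on no array and outside the bright part, 1.17% were separated in this direction, and 2.16% when the bright part was included.

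Omd encodes osteomodulin, a keratan sulfate proteoglycan of mineralised tissue. Its probe was above background on WT 2 and WT 4 and on 0 FGFR1 KO arrays. The log2 ratio was -0.40, -0.55, -0.32 and 0.02 on FGFR1 KO 1 to 4 and 0.61, 1.57, 0.77 and 1.81 on WT 1 to 4. Every WT array was above every FGFR1 KO array. The spot lay in the bright part, with negative controls as bright as the probe on some WT arrays, so no fold is given. Omd gave 93, 175, 104 and 288 red units over local background on WT 1 to 4, where the median of the 4 negative controls in its block was 188.25, 201.75, 51 and 188.5. It was thus below the control median on WT 1 and WT 2 and above every control on WT 4 alone. On FGFR1 KO arrays it gave 1 to 27 units, above every control on 3 of the 4. Of the probes in the bright part that were above background on no FGFR1 KO array, 21.8% were separated in the same direction.

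**Figure D3:**
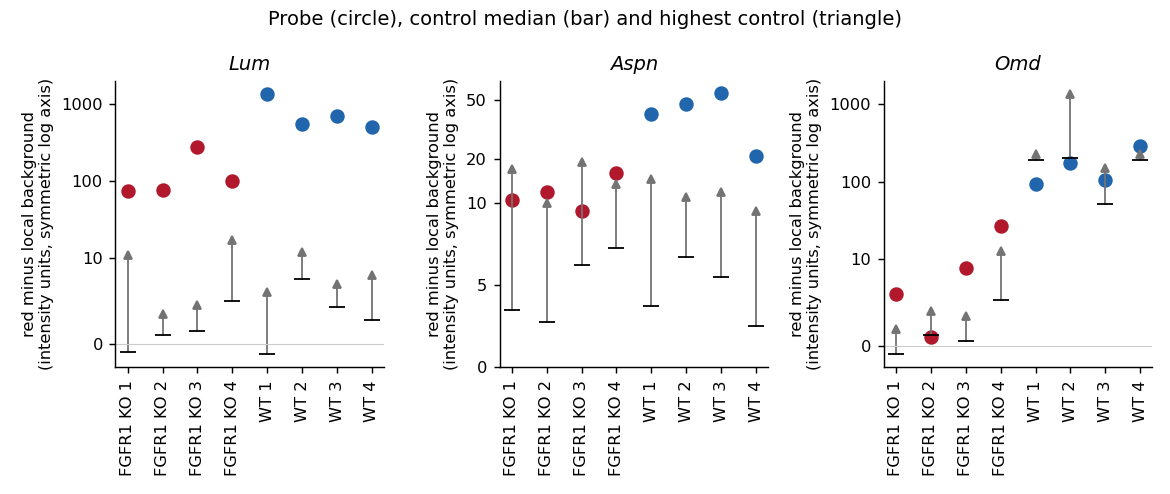
Red signal over local background (intensity units, symmetric log axis) of the Lum, Aspn and Omd probes on each array, as circles in red for FGFR1 KO and blue for WT. Bars give the median and triangles the highest of the negative controls in the same block. Lum lies above its controls on all 8 arrays, Aspn above all 6 of its controls on the WT arrays, and Omd within or below its controls on WT 1, WT 2 and WT 3.

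Kera encodes keratocan, best known from the cornea, and Epyc encodes epiphycan, of growth plate cartilage. Kera was printed at 10 spots, which gives the spread between spots of 1 probe. At the 8 spots outside the bright part, red signal over local background ran from -7 to 25 units on FGFR1 KO arrays and from -1 to 38 on WT arrays. At the 2 spots inside it, the range was -1 to 14 on FGFR1 KO arrays and 2 to 143.5 on WT arrays, with the highest value on WT 1. Epyc gave -3 to 15.5 units on FGFR1 KO arrays and 0 to 5 on WT arrays. Neither probe was well above background on any array. Both probes had log2 ratios near 0, from -0.03 to 0.39 for Kera and from -0.25 to 0.19 for Epyc, with overlapping groups.

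Genes that work with the family were taken from lists described by counts and medians, with 1 probe per gene. These lists too were chosen with earlier results of these data known. Over all 16761 named genes the median difference was 0.00 and 50.4% were below 0. Other genes of the leucine-rich proteoglycan family had 7 of 7 tested members below 0 with a median of -0.14, and 0 passed over all probes (limma). That median was -0.46 without FGFR1 KO 1, -0.46 without WT 1 and WT 2 and -0.07 without WT 3, and 4 of the 7 spots lay in the bright part. Of the 7 genes, 1 was separated with FGFR1 KO lower, against 2.5% of all named genes. It was Ecm2, the neighbour of Aspn, Omd and Ogn, which differed by -0.86 ± 0.15 (SE; limma, adjusted p = 0.162). Its log2 ratio was 0.11, 0.05, 0.26 and -0.08 on FGFR1 KO 1 to 4 and 0.73, 1.21, 0.91 and 0.90 on WT 1 to 4. Its spot also lay in the bright part, where it gave 90.5, 85, 163 and 114.5 red units over local background on WT 1 to 4 against a median of 23, 4, 36 and 289.5 in the 3 negative controls of its block, so on WT 4 it was below them. It was well above background on 3 FGFR1 KO arrays and 2 WT arrays. Podn, which encodes podocan, differed by -0.80 ± 0.31 (SE; limma, adjusted p = 0.547).

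The collagens that these proteoglycans coat had 12 of 13 tested genes below 0 and a median of -1.33, and 0 passed over all probes (limma). Of the 13 genes, 2 were separated with FGFR1 KO lower, against 2.5% of all named genes. Col6a1, a chain of the beaded filament collagen that binds biglycan and decorin, was among them. It differed by -1.47 ± 0.36 (SE; limma, adjusted p = 0.346). Col14a1, a fibril-associated collagen, differed by -1.38 ± 0.43 (SE; limma, adjusted p = 0.452). The collagen median was between -1.98 and -0.36 on FGFR1 KO arrays and between -0.49 and 0.48 on WT arrays, with FGFR1 KO 3 the highest and FGFR1 KO 4 the lowest FGFR1 KO array. Without WT 1 and WT 2 the median difference of the list was -1.48. Other proteoglycans of the extracellular matrix, which do not belong to the leucine-rich family, had 4 of 9 genes below 0 and a median of 0.03. Among these Hspg2, which encodes the basement membrane proteoglycan perlecan, differed by -0.45 ± 0.15 and Ncan, which encodes neurocan, by 0.26 ± 0.14 (SE; limma, adjusted p = 0.460 and 0.649). Whether this list differed from the collagens or the members was not tested.

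The enzymes that build chondroitin, dermatan and keratan sulfate chains had 13 of 21 genes below 0 and a median of -0.12, which was -0.02 with the bright part left out. B4galt4, a galactosyltransferase of keratan sulfate synthesis with a spot in the bright part, differed by -1.07 ± 0.32 (SE; limma, adjusted p = 0.439). Fam20b, the kinase that phosphorylates the xylose of the linkage region, differed by 0.78 ± 0.32 (SE; limma, adjusted p = 0.570). The ligands and receptors bound by these proteoglycans had 8 of 13 genes below 0 and a median of -0.03. In that list Lrp1, an endocytic receptor for decorin, differed by -0.71 ± 0.21 and Igf1r, a growth factor receptor, by -0.41 ± 0.16 (SE; limma, adjusted p = 0.439 and 0.538). The Lrp1 spot lay in the bright part, and the Igf1r probe was well above background on 3 FGFR1 KO arrays and 1 WT array. Proteases that act on the family had 8 of 10 genes below 0 and a median of -0.49, with 7 of the 10 spots in the bright part. Adamts1 differed by -1.58 ± 0.42 and Mmp2 by -1.37 ± 0.48 (SE; limma, adjusted p = 0.395 and 0.489), both from the bright part. Of these 3 lists, 0 genes passed over all probes (limma).

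**Figure D4:**
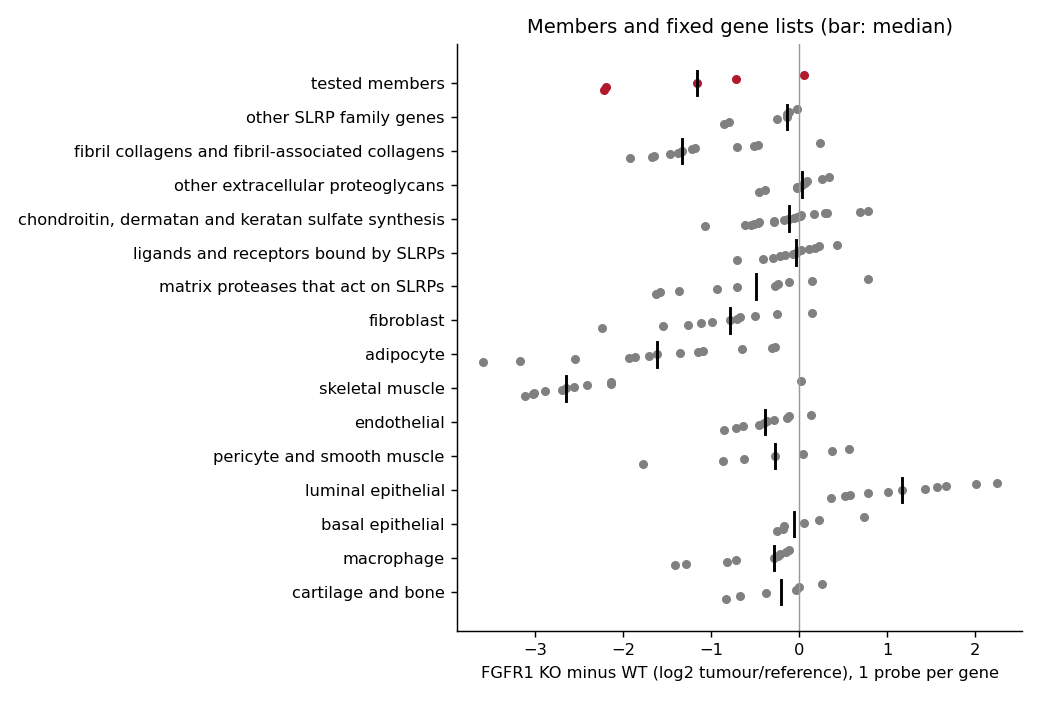
Difference between FGFR1 KO and WT on the log2 scale for the 5 tested members (red) and for the genes of each list (grey, 1 point per gene), with a black bar at the median. The collagens sit mostly below 0 with a median of -1.33, while the other extracellular proteoglycans lie around 0 with a median of 0.03.

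Markers of the cell types in a tumour piece were also described by counts and medians. Fibroblast markers had 10 of 11 genes below 0 and a median of -0.79, and 7 of 11 were separated with FGFR1 KO lower, against 2.5% of all named genes. The list was chosen with earlier results of these data known. Of the 11 genes, 5 lay in the bright part, among them the separated Dpt, Mfap5 and Pdgfra. With that part left out the median was -0.85. The median fibroblast level was -1.03 to -0.51 on FGFR1 KO arrays and -0.39 to 0.17 on WT arrays. Dpt, a decorin-binding matrix protein, differed by -2.24 ± 0.48 and Fap, a protease of activated fibroblasts, by -1.55 ± 0.38 (SE; limma, adjusted p = 0.246 and 0.341). The Dpt spot lay in the bright part and was well above background on 1 FGFR1 KO array and 3 WT arrays. Luminal epithelial markers had 11 of 11 genes above 0 and a median of 1.16, with levels of 1.71 to 2.41 on FGFR1 KO arrays and -0.34 to 2.56 on WT arrays. The medians were -1.61 for adipocytes, -2.65 for skeletal muscle, -0.39 for endothelium, -0.28 for pericytes and smooth muscle, -0.28 for macrophages, -0.21 for cartilage and bone and -0.06 for basal epithelium. In each of these 9 lists 0 genes passed over all probes (limma). Without WT 1 and WT 2 the median was -0.52 for fibroblasts, -0.12 for adipocytes, 0.25 for muscle and -0.08 for luminal epithelium. It also changed sign for endothelium, to 0.19, and for pericytes and smooth muscle, to 0.18. Without WT 2 alone it was -0.86 for adipocytes, -0.72 for muscle, 0.33 for luminal epithelium and -0.63 for macrophages. The part of each cell type in the Lum and Dcn differences was not tested.

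The genes whose log2 ratio over the 8 arrays was most like that of Lum were Serping1, Mfsd5, Ctsk, Psmc3ip and Drd3, with Pearson r from 0.96 to 0.98 and Spearman rho from 0.90 to 0.95. Those most like Dcn were Slc12a7, Gm9257, Pcolce, Gadd45b and Ezh1, with r from 0.97 to 0.99 and rho from 0.93 to 1. They were the highest of 16473 genes ranked, over arrays that share the genotype grouping, and are given as a description. Serping1, which encodes the complement C1 inhibitor, differed by -1.37 ± 0.29 (SE; limma, adjusted p = 0.235). Ctsk, the gene of cathepsin K, a protease that cleaves collagen, differed by -1.84 ± 0.33 (SE; limma, adjusted p = 0.162). Pcolce, which encodes an enhancer of procollagen processing, differed by -0.79 ± 0.24 (SE; limma, adjusted p = 0.449). Serping1, Drd3, Slc12a7 and Gadd45b were printed outside the bright part, and Mfsd5, Ctsk, Psmc3ip, Gm9257, Pcolce and Ezh1 inside it. That part held 31.8% of all probes.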

How the data were processed

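The scans were quantified by Agilent Feature Extraction 11.0.1.1 on an mm9-based design, per the file headers. The deposited median signals are spot intensities without background correction, and the deposited processed signals are intensities after background subtraction and dye normalization. Per the file headers, the deposited ratio is the log10 of red over green. The values of the deposited series matrix behaved as log2 red over green (r = 0.985 to 0.991 with the values computed here). Its columns had medians, in the order FGFR1 KO 1 to 4, of 0.0155, -0.0152, -0.000673 and 0.00487, and in the order WT 1 to 4, of -0.0044, -0.0014, -0.00486 and 0.00217. How it was centred stays unknown. The label field names cy3 alone, but by the protocol text tumour RNA carried the red dye. Green varied less within groups (median SD 0.16 and 0.18, against 0.31 and 0.39 in red), as a common reference would.

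The analysis used limma 3.58.1 under R 4.3.3: normexp with offset 50, loess within arrays with control and outlier spots at weight 0, those spots then left out, and spots of a probe averaged. A probe was tested (39795 were) if its red signal was flagged by the scanner as well above background on 4 or more arrays and each group had 3 or more values. Groups were compared by lmFit and eBayes, two-sided, with Benjamini-Hochberg adjustment. A gene of a list is its probe with the highest mean red signal. Named genes are the members, the 2 genes of each list with the smallest p (for cell types, only fibroblast genes are described singly) and the 5 most correlated genes for Lum and Dcn. Symbols came from RefSeq accessions (GRCm38.p6, names only). Signal over background and the number of arrays set the precision. The fit was tested on simulated data. The members and lists were chosen with earlier results of these data known. Alternatives covered background, normalization, filter, spread estimate, array position, a replicate block and arrays left out.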

Additional observations from a re-analysis of the deposited data

Results flagged for a closer look

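In groups of 4 arrays, 1 array lay far from the other 3 in 5 of 128 groups examined (64 members, named genes and list medians, 2 groups each), and chance gives about 1 in 20. None of the 9 member probes was among them. The fibroblast gene Fap was at 1.76 on FGFR1 KO 3, where FGFR1 KO 1, 2 and 4 lay between 0.79 and 0.94, and Lum was also highest there among the FGFR1 KO arrays. Mrc1, a macrophage receptor for mannose and collagen fragments, read 4.31 on WT 1 against 2.42 to 2.59, and WT 1 was the array with the highest Lum, Dcn and Ogn. The muscle gene Casq1 read 6.60 on WT 2 against 0.75 to 1.59 on the other WT arrays. Elf5, a transcription factor of the milk-producing lineage, read -0.027 on WT 2 against 4.37 to 5.23. The median of the proteases that act on the family was 0.51 on WT 3 against -0.35 to -0.21 on the other WT arrays.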

How the results depend on the processing

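Over 19 alternatives (18 for Fmod and Ogn, which could not be fitted with the bright part left out and with signal required on all 8 arrays, respectively), Lum, Dcn, Bgn and Ogn stayed below 0 and 0 of the members passed over all probes. The adjusted p ranged from 0.115 to 0.734 for Lum and from 0.406 to 0.844 for Dcn. Fmod turned to -0.049 with array weights, and ranged from -0.42 to 0.31 with 1 array left out, being below 0 without FGFR1 KO 1 and without WT 3. With 1 array left out, which cannot undo a separation, 1 to 2 members were separated, and 0 to 4 probes passed over all probes. That count, 4 as reported, was 0 with the scanner's log ratio, red processed signal alone, signal required on all 8 arrays, trend and robust eBayes, the bright part left out, the replicate block, or without WT 1 and WT 2. It was 139 with no filter on dim probes and 11 with array weights. The count of probes whose groups did not overlap, 2029 as reported, was 949 with signal required on all 8 arrays, 3052 with no filter, 1107 with the bright part left out, 5889 without WT 1 and WT 2, and 2841 to 3861 with 1 array left out. The median of all probes moved to 0.12 with the scanner's log ratio and to 0.14 with red signal alone, settings in which Lum read -2.73 and -2.66. Of 285 list medians under alternatives, 265 kept the reported sign. Over the probes tested, deviations from the group means correlated at -0.04, 0.01, 0.11 and -0.11 for replicate numbers 1 to 4. With the replicate block the SE fell from 0.78 to 0.54 for Dcn, 0.32 to 0.21 for Bgn and 0.43 to 0.34 for Fmod. It rose from 0.44 to 0.47 for Lum and from 0.44 to 0.46 for Ogn. No member passed with or without the block. Whether replicate numbers pair the arrays was not settled by these values. Differences smaller than the spread between 4 arrays, and levels of Aspn, Omd, Kera and Epyc, are limited by signal over background.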
